A study of Mus musculus with 9 samples.

Results

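The hyaluronan matrix was followed through 10 genes in cultured aortic valves of newborn mice: the lecticans Vcan, Acan, Ncan and Bcan, the link proteins Hapln1 and Hapln3, the hyaluronan synthases Has1, Has2 and Has3, and the hyaluronan receptor Cd44. Each was read by the probe set that the platform annotation pairs with that symbol alone. That gave 10 probe sets, 1 per gene, of 28270 rows in the value table and of 23397 probe sets with a listed gene, which were all tested. The valves came from C57BL/6J pups at postnatal day 1, and each array holds 1 pool of valves from 5 to 6 pups, cultured on floating filters in medium with 10% serum for 48 hours. In the ATRA group (n = 3 arrays) the medium held 1 µmol/L all-trans retinoic acid, the natural agonist of the retinoic acid receptors, in DMSO. In the LE540 group (n = 3) it held LE540, an antagonist of those receptors, whose dose and vehicle the labels do not give. In the DMSO group (n = 3) it held DMSO alone at 0.001%. All groups share the strain, the age, the serum and the culture, and the sex of the pups is not given.

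Hyaluronan is a long unbranched sugar polymer that synthases in the cell membrane extrude into the matrix. Lecticans are chondroitin sulfate proteoglycans that hold on to hyaluronan by one end, and link proteins clamp that contact. Cells grip the resulting gel through Cd44. In the embryonic mouse heart this gel fills the endocardial cushions from which valves grow, and mice without Has2 or without Vcan do not form them. The mature valve keeps a proteoglycan-rich middle layer.

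Versican was the 1 member that passed without a replicate block. It passed in ATRA vs LE540 but not against DMSO, and the call was lost in 10 of 20 alternative settings. Vcan was 2.44-fold higher in ATRA valves than in LE540 valves (log2 change 1.29, SE 0.21, limma adjusted p = 0.0608), with DMSO valves between them. Has2, the synthase that makes most hyaluronan in the embryonic heart, had the largest fitted difference among the members, 2.81-fold in ATRA over LE540 valves. It missed the threshold (adjusted p = 0.198) and passed with the replicate number as a block (adjusted p = 0.0987). Of the other members, 0 of 8 passed in any comparison, with or without that block.

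The start of Vcan is shown with that of Hapln1, its neighbour in the genome, and that of Has1, the 1 synthase with a window in the promoter table used. Has2 and Has3 had no window there and were not read. The windows run 5′ to 3′ on the gene's strand from 250 bases before to 50 bases after the start and are RefSeq sequences of build GRCm38.p6. They lie at chr13:89742463-89742762 (minus strand) for Vcan, chr13:89540386-89540685 (plus strand) for Hapln1 and chr17:17855139-17855438 (minus strand) for Has1. Capitals mark the word AGGTCA, the word AGTTCA, the word GGGTCA or the word GGTTCA, forms of the receptor half-site, on either strand.
Vcan: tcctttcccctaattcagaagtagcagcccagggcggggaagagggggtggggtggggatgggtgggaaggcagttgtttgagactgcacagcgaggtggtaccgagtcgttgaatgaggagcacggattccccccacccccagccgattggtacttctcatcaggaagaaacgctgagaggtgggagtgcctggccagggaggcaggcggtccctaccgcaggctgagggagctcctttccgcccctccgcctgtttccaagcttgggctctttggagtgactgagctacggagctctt
Hapln1: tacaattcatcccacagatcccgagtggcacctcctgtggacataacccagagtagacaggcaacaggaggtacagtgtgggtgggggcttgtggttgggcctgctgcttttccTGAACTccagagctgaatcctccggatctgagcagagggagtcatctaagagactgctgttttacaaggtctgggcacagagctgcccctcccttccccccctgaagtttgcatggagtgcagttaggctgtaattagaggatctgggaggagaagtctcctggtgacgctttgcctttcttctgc
Has1: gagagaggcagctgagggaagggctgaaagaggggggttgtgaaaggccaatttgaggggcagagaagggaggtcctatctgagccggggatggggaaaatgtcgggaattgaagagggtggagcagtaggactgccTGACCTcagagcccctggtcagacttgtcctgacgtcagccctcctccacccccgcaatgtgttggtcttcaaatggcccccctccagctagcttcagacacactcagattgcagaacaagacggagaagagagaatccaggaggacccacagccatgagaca

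Of the 10 members, 8 (all but Has2 and Has3) had a window in that table, and 6 of these 8 held none of the 4 words, Vcan among them. Hapln1 held TGAACT, the reverse complement of AGTTCA, 136 bases before its start. Has1 held TGACCT, the reverse complement of AGGTCA, 113 bases before its start. Any of the 4 words stood in 43.7% of 32851 windows of the same length, AGGTCA or its complement in 16.3% and AGTTCA or its complement in 14%. The matches are a description of letters in a short window.

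Values are RMA intensities, the summarised brightness of a probe set after background correction and quantile normalization, on a linear scale. The threshold was an adjusted p of 0.1 (Benjamini-Hochberg, over all 23397 probe sets), as in the series' design text. Array medians lay between 123.61 and 128.13 over all rows. Tgm2, a transglutaminase that retinoic acid induces, averaged 562 ± 53.2 in ATRA valves and 112 ± 5.57 in DMSO valves (SD, n = 3 each, log2 change 2.32, SE 0.11, limma adjusted p = 0.000228). LE540 replicate 1 stood apart from the other arrays, with 63.7 on a first principal component where the rest lay between -21.53 and 13.95. Sex-linked transcripts differed between the pools and between the groups: the summed level of 3 Y-linked genes was 533 to 1411 in ATRA, 213 to 1334 in LE540 and 110 to 613 in DMSO arrays. Xist, a transcript of female cells, averaged 602 ± 696 in ATRA, 1025 ± 847 in LE540 and 2595 ± 305 in DMSO arrays. For Xist every ATRA and every LE540 array lay below every DMSO array. In the comparisons with DMSO, treatment and the sex of the pools therefore cannot be fully told apart. The 14 markers of valve interstitial cells were all measured, none at 0, with summed levels of 28259 to 30684 in ATRA, 15727 to 25801 in LE540 and 21704 to 28313 in DMSO arrays.

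**Figure D1:**
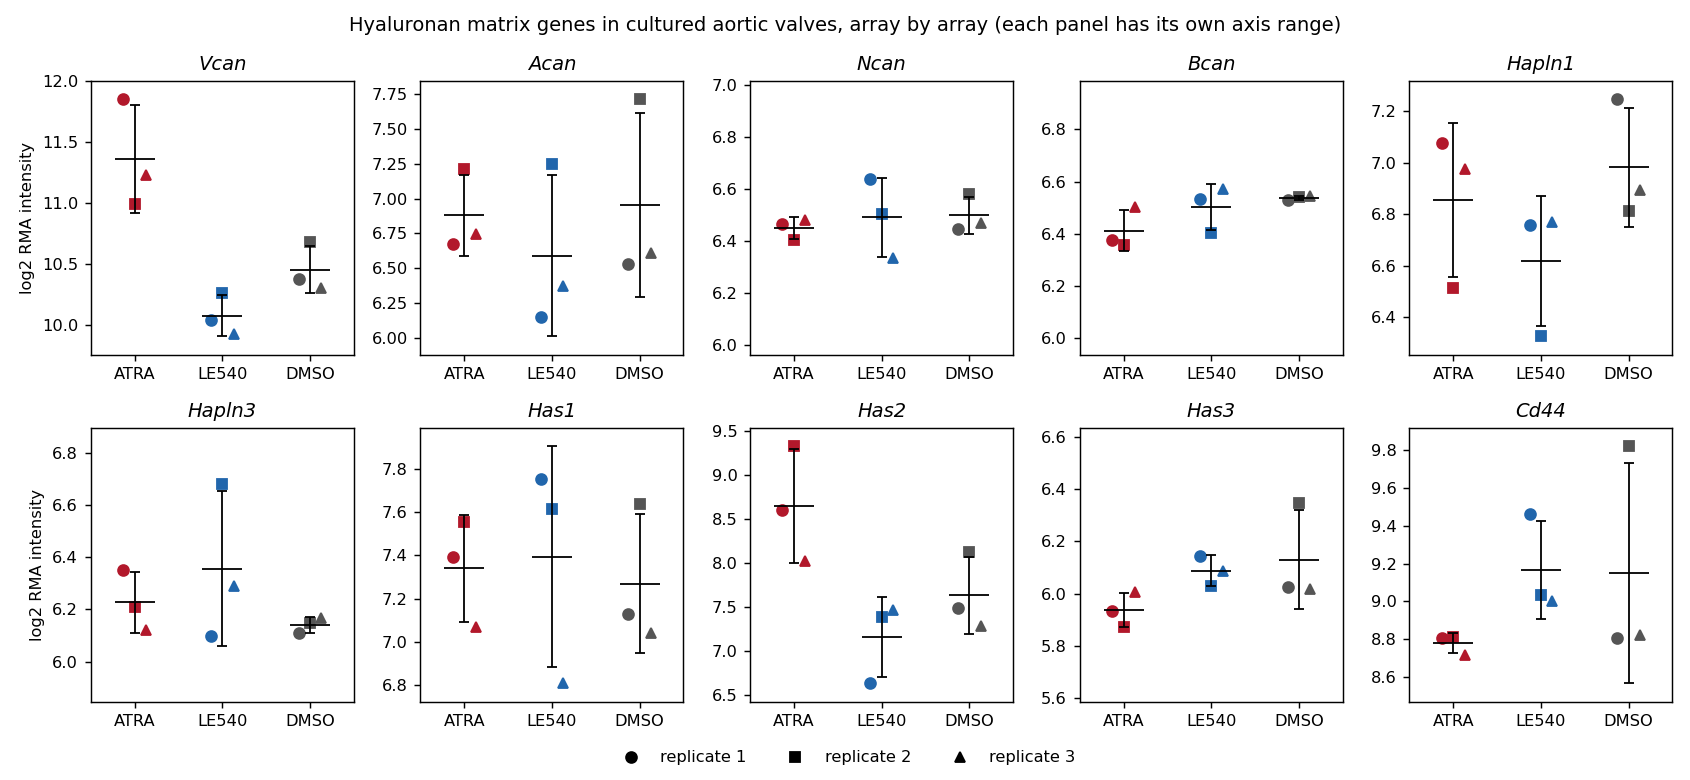
Log2 RMA intensity (vertical axis, its range set per gene) of the 10 genes in ATRA, LE540 and DMSO arrays, 1 point per array, with the mean and SD over the 3 arrays of a group; symbols give the replicate number. Vcan lies higher in every ATRA array than in any other array, and Acan is highest in replicate 2 of all 3 groups.

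Vcan encodes versican, the large lectican of loose connective tissue and of the valve cushions. Its intensity was 3696, 2036 and 2408 in the 3 ATRA arrays, 1050, 1223 and 973 in the LE540 arrays and 1332, 1636 and 1265 in the DMSO arrays. The 3 groups did not overlap. Every ATRA array lay above every DMSO array, and every LE540 array lay below every DMSO array. In ATRA vs LE540 the 2.44-fold difference had a 95% confidence interval of 1.74 to 3.42. Within replicate numbers it was 3.52-fold, 1.66-fold and 2.48-fold. Vcan was the 1 member that passed there, while 0.603% of all probe sets passed.

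Against DMSO, Vcan did not pass in either direction. In ATRA vs DMSO the log2 change was 0.91 (SE 0.21, 95% confidence interval 0.42 to 1.39, limma adjusted p = 0.534). For LE540 over DMSO it was -0.38 (SE 0.21, interval -0.87 to 0.11, adjusted p = 0.625). The LE540 to DMSO ratio was 0.789, 0.748 and 0.769 in the 3 replicate numbers. Equally numbered arrays of LE540 and DMSO were little alike in their deviations from group means (r of 0.0095, 0.215 and 0.126). Both comparisons with DMSO use the same 3 DMSO arrays, so they are not independent of each other.

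The call for Vcan in ATRA vs LE540 sat near the threshold. With only the 6 arrays of these groups fitted, its limma adjusted p was 0.239. The limma adjusted p was 0.131, 0.105 and 0.123 when DMSO replicate 1, 2 or 3 was left out, 0.162 when ATRA replicate 3 was left out, 0.192 for LE540 replicate 1 and 0.101 for LE540 replicate 3. With any of the other 3 arrays left out it passed (0.0492 to 0.0942), and it passed with the replicate block (0.0817). The log2 change itself stayed between 1.04 and 1.47 with any 1 array left out. ATRA replicate 1 is the brightest array for Vcan, and without it the change was 1.04 with an adjusted p of 0.0942.

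Cell type markers were read in the same arrays. In bulk explants a change in the number of cells of a type and in the RNA per cell cannot be told apart. Interstitial markers had 12 of 14 members with higher values in ATRA than in LE540 valves (median log2 change 0.53, 0 passed), endothelial markers 10 of 10 (median 0.43, 0 passed, or 2 with the replicate block) and cardiomyocyte markers 2 of 14 (median -0.42, 0 passed). Over all probe sets 43.1% had higher values in ATRA than in LE540 valves, and the median was -0.03. The summed endothelial level was 2287 to 5702 in ATRA and 1447 to 3180 in LE540 arrays, and the summed cardiomyocyte level 13061 to 22269 in ATRA and 12699 to 22701 in LE540 arrays, with no marker at 0. LE540 replicate 1 held the lowest interstitial sum, 15727, against 22710 and 25801 in LE540 replicates 2 and 3. In each group replicate 2 held the highest endothelial sum, with 5702 against 2287 and 2426.5 in ATRA replicates 1 and 3. In LE540 arrays it was 3180 against 1447 and 1956, and in DMSO arrays 3361 against 1525 and 1861. Replicate 2 also held the lowest Y-linked sum of each group (533 in ATRA, 213 in LE540 and 110 in DMSO arrays). With the interstitial score as a covariate, a setting chosen after seeing the data, the log2 change of Vcan was 1.35 (SE 0.31, limma adjusted p = 0.467). With the cardiomyocyte score it was 1.18 (adjusted p = 0.144), and with the Y-linked score 1.32 (adjusted p = 0.0925). Against DMSO the Y-linked score gave Vcan changes of 1.01 for ATRA and -0.31 for LE540, and neither passed. The part of the endothelial markers in the result was not tested.

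**Figure D2:**
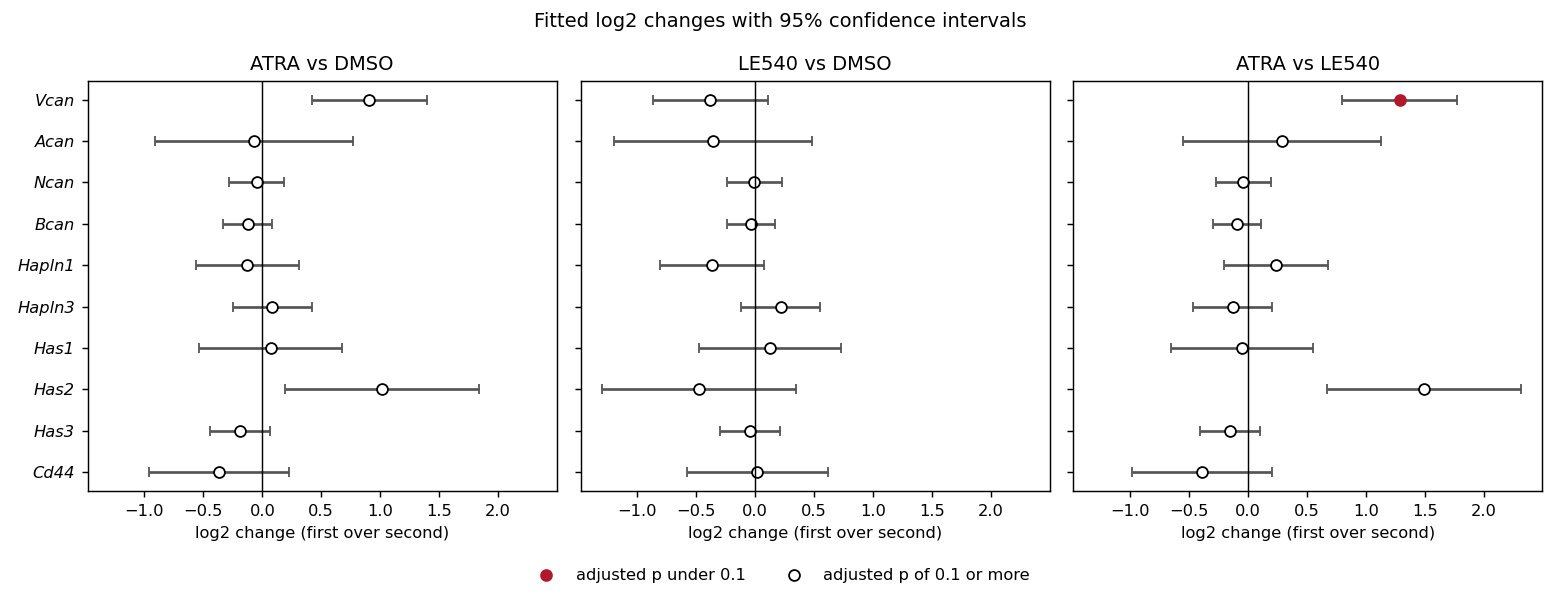
Fitted log2 change of each gene (horizontal axis) with its 95% confidence interval in the 3 comparisons, first group over second; a filled point passed at an adjusted p under 0.1. Vcan in ATRA vs LE540, at 1.29, is the 1 filled point, and the interval of Has2 lies above 0 in ATRA vs DMSO and in ATRA vs LE540.

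Acan, the aggrecan of cartilage and of valve hinge regions, read 102, 149 and 108 in ATRA arrays, 71.2, 152 and 82.8 in LE540 arrays and 92.7, 210 and 97.7 in DMSO arrays. Acan lay above the median of the tested probe sets in 3 of 9 arrays, and signal over background is not known in the others. The groups overlapped throughout, and replicate 2 was the highest array in 3 of 3 groups. Its log2 change was -0.07 in ATRA vs DMSO (95% confidence interval -0.91 to 0.77) and 0.31 without DMSO replicate 2. It was -0.36 in LE540 vs DMSO (interval -1.20 to 0.48) and in ATRA vs LE540 0.29 (interval -0.55 to 1.13). These values moved with single arrays. The LE540 vs DMSO change was 0.02 without DMSO replicate 2, a fit that kept LE540 replicate 2, the highest array of its group. With 1 array left out this change ranged from -0.69 to 0.02. The ATRA vs LE540 change ranged from 0.07 without LE540 replicate 1 to 0.62 without LE540 replicate 2. After adding the Y-linked score to the fit, the change was 0.71 in ATRA vs DMSO and 0.18 in LE540 vs DMSO. The LE540 to DMSO ratio of Acan was 0.768, 0.724 and 0.848 within replicate numbers. Of 9 chondrocyte markers 0 passed in any comparison, with summed levels of 1262 to 1386 in ATRA, 1160 to 1309 in LE540 and 1230 to 1355 in DMSO arrays.

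Ncan and Bcan encode neurocan and brevican, lecticans of the nervous system. Ncan ranged from 80.8 to 99.6 over the 9 arrays and Bcan from 81.9 to 95.1, below the median of the tested probe sets on every array (133.97 to 139.43). Signal over background is not known at such levels. Their log2 changes lay between -0.13 and -0.01 in the 3 comparisons, and the intervals of Bcan ended at -0.33 and 0.17 at the widest. Bcan read 83.1, 81.9 and 90.7 in ATRA arrays, against 92.3, 93.1 and 93.2 in DMSO arrays, which do not overlap (log2 change -0.13, SE 0.09, limma adjusted p = 0.999). Of 6 measured glial markers 0 passed in any comparison, with summed levels of 623 to 772 in ATRA, 581 to 756 in LE540 and 591 to 624 in DMSO arrays.

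Hapln1 encodes the cartilage link protein, which ties lecticans to hyaluronan and is also made in the developing mouse valve. It read 135, 91.5 and 126 in ATRA arrays, 108, 80.3 and 109 in LE540 arrays and 152, 112 and 119 in DMSO arrays. Every LE540 array lay below every DMSO array, ATRA arrays overlapped both, and replicate 2 was the lowest array in 3 of 3 groups. In LE540 vs DMSO the log2 change was -0.36 (SE 0.19, 95% confidence interval -0.80 to 0.08, limma adjusted p = 0.608). It was 0.24 in ATRA vs LE540 (interval -0.20 to 0.68), and the ATRA value was the higher in 3 of 3 replicate numbers, by 1.25-fold, 1.14-fold and 1.15-fold. In ATRA vs DMSO it was -0.13 (interval -0.57 to 0.31). Without LE540 replicate 2 the Hapln1 change was -0.22 in LE540 vs DMSO and 0.09 in ATRA vs LE540. It was -0.23 in LE540 vs DMSO without DMSO replicate 1, and 0.13 and 0.41 in ATRA vs LE540 without ATRA replicate 1 or 2. In ATRA vs DMSO it lay between -0.24 and 0.04 with 1 array left out.

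Each lectican gene lies next to a link protein gene in the mouse genome. In the RefSeq table of GRCm38.p6 no protein-coding gene lies between Vcan and Hapln1, or between Acan and Hapln3. The same holds for Bcan and Hapln2 and for Ncan and Hapln4. For the first pair the fitted values in ATRA vs DMSO were 0.91 (interval 0.42 to 1.39) for Vcan and -0.13 (interval -0.57 to 0.31) for Hapln1. The values for LE540 over DMSO were -0.38 for Vcan and -0.36 for Hapln1, with intervals that both reach above 0.

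Hapln3, a link protein found outside cartilage, read 81.6, 74.1 and 69.6 in ATRA arrays, 68.5, 103 and 78.2 in LE540 arrays and 69.0, 70.9 and 71.9 in DMSO arrays. Hapln3 lay below the median of the tested probe sets on every array, where signal over background is not known. The groups overlapped, and LE540 replicate 2 was the highest array. The log2 change was 0.22 in LE540 vs DMSO (SE 0.15, interval -0.12 to 0.55) and 0.05 without that array. It was 0.09 in ATRA vs DMSO (interval -0.25 to 0.42) and -0.13 in ATRA vs LE540 (interval -0.46 to 0.21).

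Has2 had the widest fitted changes of the 3 synthases, and passed in none of the comparisons without the replicate block. It read 388, 639 and 260 in ATRA arrays, 99.1, 166 and 176 in LE540 arrays and 179, 279 and 156 in DMSO arrays. Every ATRA array lay above every LE540 array, whereas ATRA and DMSO arrays overlapped, since DMSO replicate 2 read more than ATRA replicate 3. Within replicate numbers the ATRA to LE540 ratio was 3.91, 3.84 and 1.48.

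In ATRA vs LE540 the log2 change of Has2 was 1.49 (SE 0.36, 95% confidence interval 0.67 to 2.32, limma adjusted p = 0.198). With 1 array left out it ranged from 1.16 without ATRA replicate 2 to 1.80 without ATRA replicate 3. Without LE540 replicate 1 it was 1.23 (adjusted p = 0.492). With the replicate number as a block it passed at 0.0987, and 0.945% of all probe sets then passed. Equally numbered ATRA and LE540 arrays were only weakly alike in their deviations from group means (r of 0.26, 0.28 and 0.27). Each ATRA array was nonetheless more like the LE540 array of its own number than the other LE540 arrays. The blocked fit also included the DMSO arrays, where r with equally numbered LE540 arrays was 0.0095, 0.22 and 0.13. Why the Has2 call differed with the block was not tested. In ATRA vs DMSO the change was 1.02 (SE 0.36, interval 0.19 to 1.84, adjusted p = 0.977, or 0.492 with the block). The ATRA to DMSO ratio was 2.16, 2.29 and 1.67 within replicate numbers. For LE540 over DMSO it was -0.48 (SE 0.36, interval -1.30 to 0.35, adjusted p = 0.701) and -0.21 without LE540 replicate 1. With the interstitial score as a covariate the ATRA vs LE540 change was 1.499 (SE 0.53, adjusted p = 0.868), and with the Y-linked score 1.66 (adjusted p = 0.106). With the cardiomyocyte score it was 1.71 (adjusted p = 0.186). Against DMSO the Y-linked score moved the Has2 change to 1.56 for ATRA and to -0.10 for LE540, and neither passed.

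**Figure D3:**
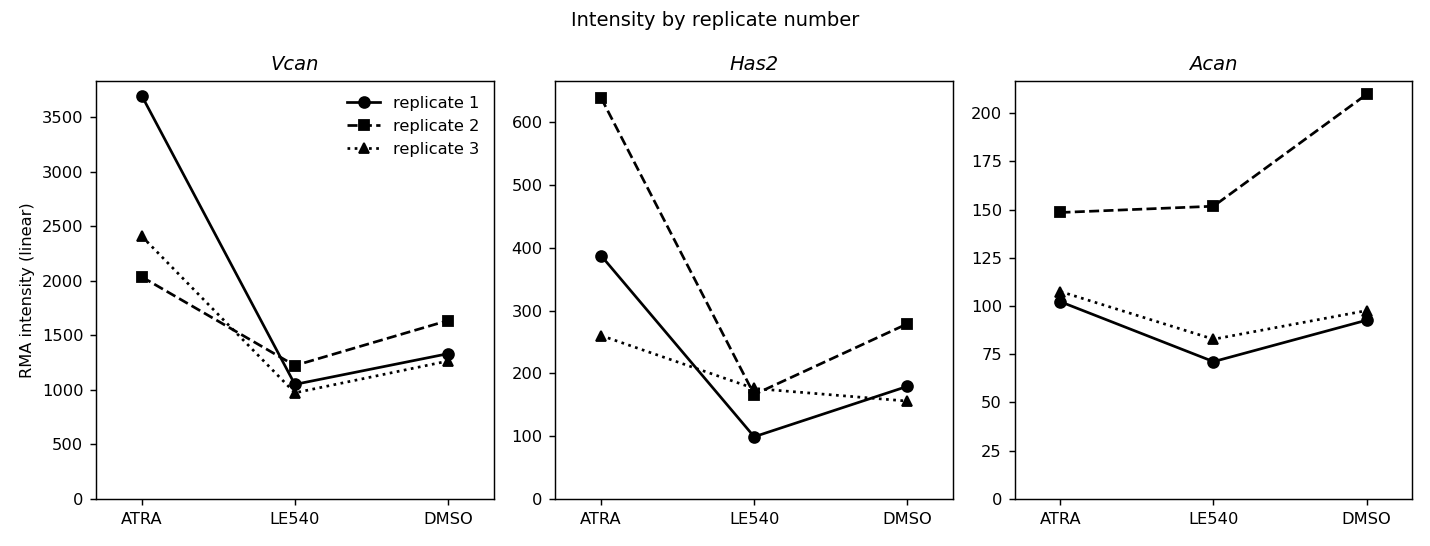
Linear RMA intensity (vertical axis from 0) of Vcan, Has2 and Acan in ATRA, LE540 and DMSO arrays, with a line joining the arrays of 1 replicate number. For Vcan and Has2 every line lies lower at LE540 than at ATRA, and replicate 2 lies above the others in all groups for Acan.

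Has1, another synthase, read 168, 188 and 134 in ATRA arrays, 216, 196 and 112 in LE540 arrays and 140, 199 and 132 in DMSO arrays. The groups overlapped, and replicate 3 was the lowest array in 3 of 3 groups. Its log2 change was 0.07 in ATRA vs DMSO (interval -0.53 to 0.68), 0.12 in LE540 vs DMSO (interval -0.48 to 0.73) and -0.05 in ATRA vs LE540 (interval -0.66 to 0.55).

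Has3 read 61.1, 58.6 and 64.2 in ATRA arrays, 70.8, 65.3 and 68.1 in LE540 arrays and 65.2, 81.5 and 64.7 in DMSO arrays. Every ATRA array lay below every LE540 and every DMSO array, by a small margin and at a level under the lower quartile of the tested probe sets in 5 of 9 arrays. The log2 change was -0.19 in ATRA vs DMSO (SE 0.11, interval -0.45 to 0.06, limma adjusted p = 0.999) and -0.08 without DMSO replicate 2. It was -0.15 in ATRA vs LE540 (SE 0.11, interval -0.40 to 0.10) and -0.04 in LE540 vs DMSO (interval -0.30 to 0.21).

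Cd44, the receptor through which cells bind and take up hyaluronan, read 448, 449 and 421 in ATRA arrays, 706, 524 and 512 in LE540 arrays and 447, 904 and 452 in DMSO arrays. ATRA arrays lay close together, below every LE540 array, while DMSO replicate 2 read higher than any other array. The log2 change was -0.39 in ATRA vs LE540 (SE 0.26, interval -0.98 to 0.21, limma adjusted p = 0.695). In ATRA vs DMSO it was -0.37 (interval -0.96 to 0.23) and -0.03 without DMSO replicate 2. It was 0.02 in LE540 vs DMSO (interval -0.58 to 0.61) and 0.36 without DMSO replicate 2. Cd44 is also made by leukocytes. The summed level of 10 macrophage markers was 2010 to 3533 in ATRA, 2591 to 3616 in LE540 and 2017 to 4421 in DMSO arrays, with none at 0. Of these 10, 7 had higher values in ATRA than in LE540 valves, 5 in ATRA than in DMSO valves and 1 in LE540 than in DMSO valves (0 passed). Over all probe sets 43.1%, 48.5% and 54.7% were higher, in the same order. The part of the macrophage markers in the Cd44 values was not tested.

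Counted over the members, 0 of 10 passed in ATRA vs DMSO by limma, where 0.0812% of all probe sets passed, and 2 of 10 had an unadjusted p under 0.05 (Vcan and Has2), against 4.7%. In LE540 vs DMSO 0 of 10 passed, where 0.0299% of all probe sets passed, and 0 of 10 had an unadjusted p under 0.05, against 8.8%. In ATRA vs LE540 1 of 10 passed (Vcan), where 0.603% of all probe sets passed, and 2 of 10 had an unadjusted p under 0.05 (Vcan and Has2), against 9.54%.

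Groups that do not overlap are common with 3 arrays each. In ATRA vs DMSO 1 member lay wholly higher (Vcan), against 4.97% of all probe sets, and 2 wholly lower (Bcan and Has3), against 6.34%. Among LE540 and DMSO arrays 0 members lay wholly higher, against 6.74%, and 2 wholly lower (Vcan and Hapln1), against 5.86%. Among ATRA and LE540 arrays 2 lay wholly higher (Vcan and Has2), against 5.24%, and 2 wholly lower (Has3 and Cd44), against 6.24%. The median log2 change of the 10 members was -0.06 in ATRA vs DMSO, -0.04 in LE540 vs DMSO and -0.05 in ATRA vs LE540, beside -0.01, 0.02 and -0.03 over all probe sets. Members went both ways, with 4, 3 and 4 of 10 above 0, and the median absolute log2 change of the members was 0.13, 0.17 and 0.19, beside 0.10, 0.13 and 0.13 over all probe sets. The members also had a larger median SE (0.20, against 0.15 over all probe sets).

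The list of genes that make or carry nucleotide sugars, some of which feed the synthases, held the 1 called gene around the members. Gnpnat1, an acetyltransferase on the route to UDP-N-acetylglucosamine, was lower in ATRA than in LE540 valves, at 1022 ± 248 against 2547 ± 303 (SD, n = 3 each, log2 change -1.34, SE 0.20, limma adjusted p = 0.0451). DMSO valves averaged 1063 ± 173. Its other probe set gave -1.22 (adjusted p = 0.0595). In LE540 vs DMSO the change of Gnpnat1 was 1.27 (SE 0.20, adjusted p = 0.163), and in ATRA vs DMSO it was -0.08 (SE 0.20). Of the 9 measured genes of this list 1 passed in ATRA vs LE540 and 0 in the comparisons with DMSO.

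Gfpt2, a rate-setting amidotransferase of the same route, averaged 1230 ± 116 in ATRA and 605 ± 203 in DMSO valves (log2 change 1.08, SE 0.24, limma adjusted p = 0.433). Ugdh, which makes the UDP-glucuronic acid that is the other building block of hyaluronan, averaged 1673 ± 38.3 in ATRA and 1311 ± 160 in DMSO valves (log2 change 0.36, SE 0.12, adjusted p = 0.932). For both, every ATRA array lay above every DMSO array. In ATRA vs LE540 Gfpt2 was at 1.03 (SE 0.24, adjusted p = 0.178) and passed with the replicate block (adjusted p = 0.0795). Slc35d1, which carries UDP-sugars into the endoplasmic reticulum, was at -0.67 in LE540 vs DMSO (SE 0.15, adjusted p = 0.369).

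Of 22 genes that build and sulfate chondroitin chains, 0 passed in any comparison. Values in ATRA vs LE540 were higher for 16 and lower for 6 (median 0.15), in ATRA vs DMSO 15 higher and 7 lower (median 0.05) and in LE540 vs DMSO 9 higher and 13 lower (median -0.08). Over all probe sets 43.1%, 48.5% and 54.7% were higher, in the same order. The summed level of the 22 genes was 5668 to 5840 in ATRA, 4569 to 5190 in LE540 and 5398 to 5588 in DMSO arrays. These sums, to which bright probe sets add most, did not overlap between the groups. The mean centred log2 level of the same 22 genes was 0.046 to 0.131 in ATRA, -0.185 to -0.037 in LE540 and -0.037 to 0.091 in DMSO arrays. On that scale ATRA and LE540 arrays did not overlap, ATRA and DMSO arrays did, and LE540 and DMSO arrays met at -0.037. Chst11, a chondroitin 4-O-sulfotransferase, was at 1.20 in ATRA vs LE540 (SE 0.28, limma adjusted p = 0.179) and 0.84 in ATRA vs DMSO (SE 0.28, adjusted p = 0.898). Dsel, an enzyme of the dermatan sulfate epimerase family, was at -0.69 in LE540 vs DMSO (SE 0.18, adjusted p = 0.424).

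The list of matrix proteins that bind versican also holds Selplg, a cell surface protein, and 0 of its 8 measured genes passed. Fbln1, a fibulin that binds versican, averaged 687 ± 183 in ATRA, 280 ± 56.6 in LE540 and 339 ± 105 in DMSO valves. Its log2 change was 1.28 in ATRA vs LE540 (SE 0.29, limma adjusted p = 0.17) and 1.03 in ATRA vs DMSO (SE 0.29, adjusted p = 0.713). Fbn2, a fibrillin, was at -0.45 in ATRA vs DMSO (SE 0.19).

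The list of proteases that cut versican or aggrecan also holds Timp3, an inhibitor of such proteases, and 0 of its 14 genes passed. Values in ATRA vs LE540 were higher for 12 and lower for 2 (median 0.28), where 43.1% of all probe sets were higher. In LE540 vs DMSO 4 were higher and 10 lower (median -0.09), where 54.7% of all probe sets were higher. The summed level of these 14 genes was 9698 to 11361 in ATRA, 4948 to 7228 in LE540 and 6166 to 9606 in DMSO arrays. Mmp3, a stromelysin, had the widest change, 2.36 in ATRA vs DMSO (SE 0.64, limma adjusted p = 0.70), with 984 ± 935 in ATRA and 143 ± 48.8 in DMSO valves. Mmp2, a gelatinase, was at 1.12 in ATRA vs LE540 (SE 0.36, adjusted p = 0.348).

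Genes that bind or break down hyaluronan had 0 of 21 measured genes pass in any comparison, with medians of 0.03 in ATRA vs DMSO, 0.04 in LE540 vs DMSO and -0.03 in ATRA vs LE540. Cemip2, a transmembrane protein linked to hyaluronan breakdown, averaged 457 ± 54.3 in ATRA, 364 ± 216 in LE540 and 732 ± 67.2 in DMSO valves. Every ATRA and every LE540 array lay below every DMSO array for Cemip2, at log2 changes of -0.68 (SE 0.48) and -1.27 (SE 0.48, limma adjusted p = 0.541) against the same DMSO arrays. Hmmr, a hyaluronan-binding protein of the mitotic spindle, was at -1.41 in LE540 vs DMSO (SE 0.51, adjusted p = 0.541). Itih2, an inter-alpha-trypsin inhibitor heavy chain that is transferred onto hyaluronan, was at 1.06 in ATRA vs LE540 (SE 0.35, adjusted p = 0.361).

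**Figure D4:**
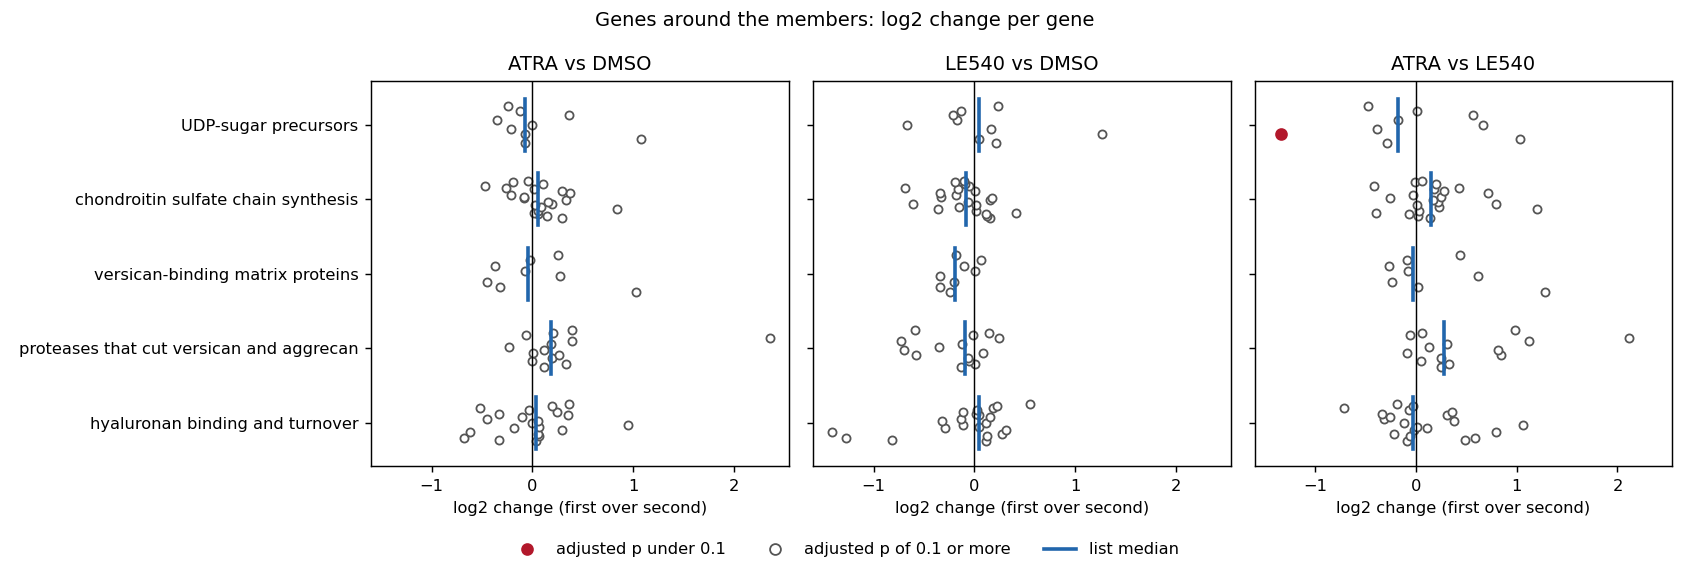
Log2 change (horizontal axis, first group over second) of each measured gene in 5 lists around the members, 1 point per gene, with a bar at the list median; a filled point passed at an adjusted p under 0.1. Gnpnat1 in ATRA vs LE540, at -1.34, is the 1 filled point, and Mmp3 lies farthest to the right in ATRA vs DMSO.

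Patterns like those of Vcan and Has2 were sought among 10544 other named probe sets brighter than the median, by Pearson's r of log2 values over the 9 arrays. For Vcan the 5 highest were Twist2 (r = 0.971), Heg1 (0.953), Krt87 (0.949), Tns1 (0.945) and Sox4 (0.94), and 32 probe sets exceeded 0.9. For Has2 they were Rgs5 (r = 0.94), Pitpnc1 (0.935), Zbtb38 (0.93), Svil (0.928) and Sbno2 (0.923), and 16 exceeded 0.9. The points share the same 9 arrays and their group differences, so these values only describe likeness of profile.

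**Figure D5:**
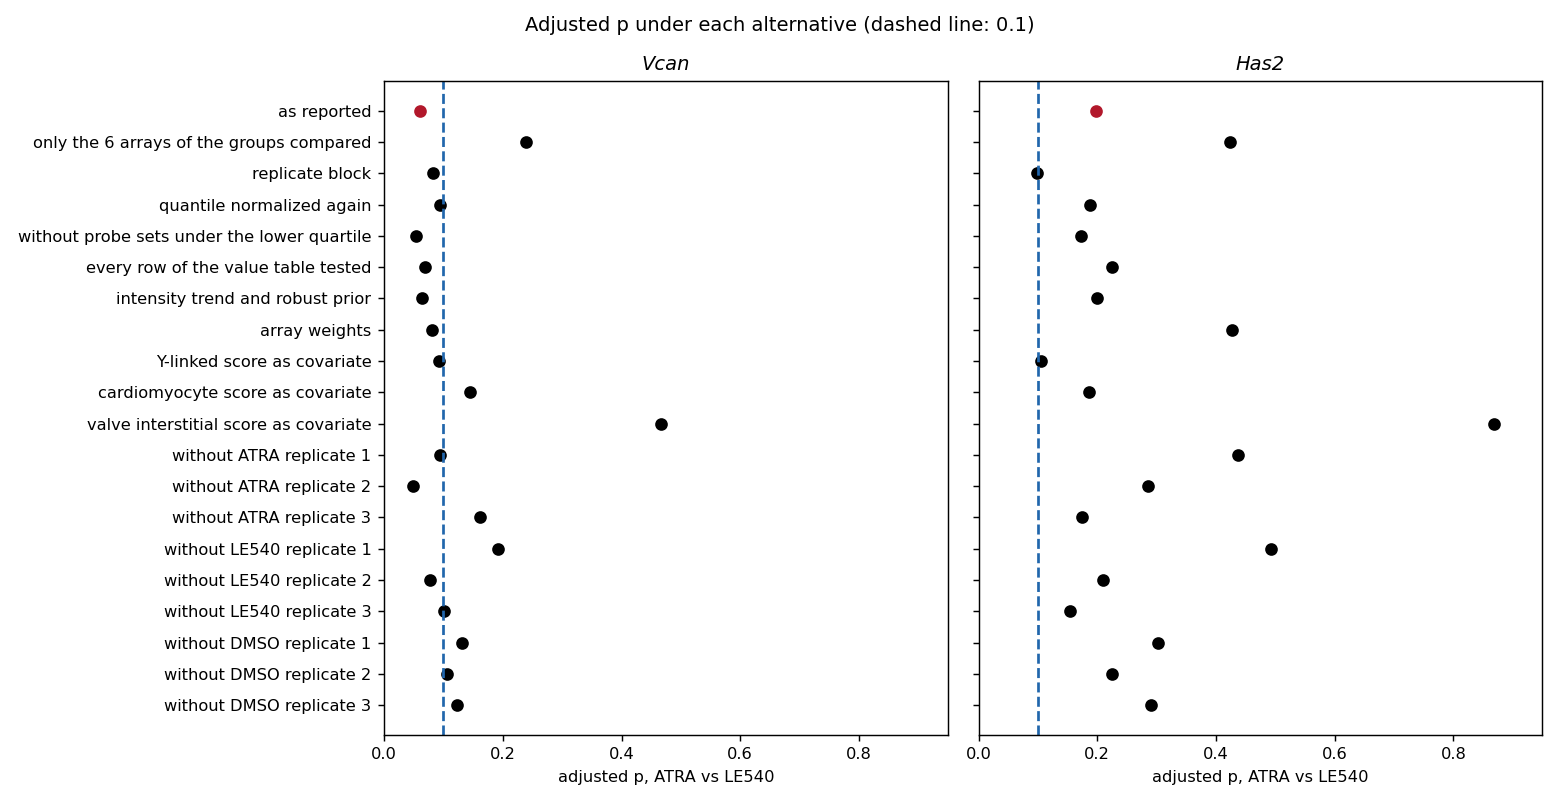
Limma adjusted p in ATRA vs LE540 (horizontal axis) for Vcan and Has2 as reported (top point, coloured) and under each alternative (vertical axis), with a dashed line at 0.1. Vcan lies on both sides of the line, up to 0.467, and Has2 lies left of it with the replicate block alone.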

How the data were processed

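Per the submitters' processing notes, the authors made the deposited intensity values with Affymetrix Expression Console 1.1 and RMA. They are on a linear scale (4.09 to 17798.2), and log2 was taken before any test. A genome build for the array is not given in the sources used here. Of 28270 rows, 23397 with a listed gene were tested, and 4873 were left out. limma 3.58.1 in R 4.3.3 fitted 3 group means over 9 arrays, with 6 residual and 2.725 prior degrees of freedom and two-sided contrasts. Fold changes are 2 to the power of the log2 change. The fit was tested on simulated data. Replicates are separate pools per the labels, and 3 arrays per group limit precision.

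Members and lists were chosen with earlier results of these data known. Of each list around the members, genes that passed are named, or else those with the widest change (2 per list and comparison, of which the text gives some). List genes use their brightest probe set. Arrays of equal replicate number were compared by their deviations from group means: r was 0.143, 0.342 and 0.22 in ATRA and DMSO, 0.261, 0.282 and 0.269 in ATRA and LE540, and 0.0095, 0.215 and 0.126 in LE540 and DMSO. Each ATRA array was most like the equally numbered array of either other group, while among LE540 arrays against DMSO this held for replicate 2 alone. Blocked values are therefore given for the comparisons with ATRA where a call changes. Alternatives covered the arrays fitted, normalization, filters, prior, weights, threshold and covariates.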

Additional observations from a re-analysis of the deposited data

How the results depend on the processing

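Counts near the threshold depended on the fit, and the causes were not tested. In limma 19 probe sets passed in ATRA vs DMSO, against 9 with the 6 arrays of those groups alone, 29 with the replicate block, 71 with array weights, 8 at a threshold of 0.05, 7 and 6 with a covariate (the Y-linked and the cardiomyocyte score), and 4 to 22 with 1 array left out. In LE540 vs DMSO 7 passed, against 1 with 6 arrays, 1 with the replicate block, 0 after quantile normalization, with every row tested, at 0.05, with the cardiomyocyte or with the interstitial score (2060 had an unadjusted p under 0.05 as reported), and 0 to 297 with 1 array left out. In ATRA vs LE540 141 passed, against 25 with 6 arrays, 221 with the replicate block, 60 at 0.05, 63 with the cardiomyocyte and 10 with the interstitial score, and 54 to 278 with 1 array left out. Of the members 1 passed in ATRA vs LE540 (Vcan), against 2 with the replicate block (Vcan and Has2), 0 with 6 arrays, at 0.05, with the cardiomyocyte or with the interstitial score, and 0 to 1 with 1 array left out. No member passed in the comparisons with DMSO under any of the 20 alternatives, and the block changed no other call of a member. The signs of Vcan and Has2 held in all 3 comparisons under all of them; Acan, Ncan, Bcan, Has1, Has3, Hapln1, Hapln3 and Cd44 changed sign, without passing, in at least 1. Signal over background is not known for members below the array medians, which limits what their small differences can show.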
